A study of Saccharomyces cerevisiae with 4 samples.

Results

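Antisense RNAs are made from the strand opposite to a protein-coding gene. In budding yeast many of them arise next to a promoter that fires in both directions and run backwards over the gene upstream. The RNAs described here are the others: they overlap an open reading frame (ORF) of the opposite strand, touch no ORF and no annotated noncoding RNA gene of their own strand, and their start is not in the 500 bases before any opposite start codon. They numbered 17347 of the 425462 distinct isoforms in the data, an isoform being 1 pair of start and end position. An RNA of this kind can only enter an opposite ORF from its far side, so it starts either inside the ORF (10965 isoforms) or past the stop codon (6382 isoforms).

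The RNA came from strain FSY3636 (MATa, S288c background), where the kanMX4 marker replaces RRP6. All cultures carried this deletion, grew in YPAD, a rich glucose medium, and were taken in mid-log phase. TIF-Seq pairs, for each molecule, its capped start with its polyadenylated end. Both cultures were prepared 2 times, and the deposited table sums these 4 libraries into 1 count per isoform, so no value has a replicate error, no test between samples was possible, and no level is set against a strain with RRP6.

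RRP6 encodes a nuclear exonuclease that trims and destroys RNA from its 3′ end. Short noncoding RNAs, many of them ended early by the RNA-binding proteins Nrd1 and Nab3, are normally removed by this enzyme and its partners, which makes an rrp6 strain a common place to look for them. Antisense RNAs can start at the 3′ end of a gene, where a gap between nucleosomes often lies, or within the gene body. Transcription of some of them is known to repress the sense gene, as for the meiotic gene IME4.

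The antisense RNAs held 23546 of 1833796 reads, or 1.28% (95% Wilson interval 1.27 to 1.30), beside 1.57% for antisense RNAs that start in divergent position. Those that start inside an ORF made up 62.8% of their reads (62.2 to 63.4) and those that start past a stop codon 37.2% (36.6 to 37.8). The 500-base limit decides part of these counts. The last 100 bases inside the limit, on the divergent side, held 4774 read starts. The next 100 bases beyond the limit held 2839 read starts of the members, and the 100 bases after those 2881. With a limit of 1000 bases the share of all reads was 0.744%, and with 300 bases 1.93%. Intervals cover counting error only, and reads are not independent molecules if PCR copies remain.

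Most of these RNAs were seen only a few times. Of the 17347 isoforms, 15336 (88.4%) had 1 read and 134 had at least 10 reads, the most being 83. When start sites within 20 bases of the next were merged, they formed 7211 start clusters. Of all their reads, 52.7% fell in 364 clusters of 10 or more and 26.7% in 65 clusters of 50 or more. The reads were spread over all 16 chromosomes, from 1029 reads per Mb on chromosome VI to 3698 on chromosome V, and over both strands, with 11805 on plus and 11741 on minus.

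The strongest clusters show what such starts look like. In the sequences below, from 40 bases before to 10 bases after the start of the most read isoform, the capitals mark the start base and the base before it (R64 build, RNA strand, 5′ to 3′). A cluster holds several start sites, and positions given below are that isoform's start, which was the most used start in 19 of the 24 strongest clusters. SNU71 and BUD31, with the most used start a few bases away, and ECM32, YNL035C and MAK10 were the others. The first 5 start inside the named ORF and the last 4 past its stop codon.
NNR2, chrXI:164883-164933, plus: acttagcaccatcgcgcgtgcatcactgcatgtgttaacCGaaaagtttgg
SNU71, chrVII:516256-516306, minus: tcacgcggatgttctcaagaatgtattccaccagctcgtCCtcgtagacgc
MEI4, chrV:238585-238635, plus: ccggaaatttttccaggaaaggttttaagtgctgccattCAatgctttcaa
COM2, chrV:422141-422191, plus: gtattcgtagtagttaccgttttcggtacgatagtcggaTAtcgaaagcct
BUD31, chrIII:228495-228545, minus: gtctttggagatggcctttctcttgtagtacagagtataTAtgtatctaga
RGT2, chrIV:215723-215773, minus: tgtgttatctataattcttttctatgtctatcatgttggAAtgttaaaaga
YRO2, chrII:344151-344201, minus: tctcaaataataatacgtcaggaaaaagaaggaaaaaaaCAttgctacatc
NGK1, chrXII:1026634-1026684, minus: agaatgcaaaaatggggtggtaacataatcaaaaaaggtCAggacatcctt
TIM9, chrV:117506-117556, minus: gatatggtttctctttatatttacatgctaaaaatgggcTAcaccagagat

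A pyrimidine followed by a purine is the pair at which yeast RNA polymerase II usually begins. It stood at the start of the most read isoform in 19 of the 24 strongest clusters. These were 11 of 12 inside ORFs (SNU71 with its CC being the other) and 8 of 12 past stop codons. The most used start can differ: at SNU71 it is position 516274, with CA, and at YNL035C position 568390, with TA. Over all distinct start sites the pair was found at 64.1% (63.0 to 65.1) of 7911 sites inside ORFs and 70.9% (69.4 to 72.3) of 3811 sites past stop codons. All positions antisense to ORFs have it at 23.1%. Sites with 5 to 9 reads had it at 90.3% and 93.3%, and even sites with a single read at 59.8% and 65.5%. Sites with at least 10 reads were at 80.3% (73.1 to 85.9) and 86.7% (78.9 to 91.9). Divergent antisense sites of that depth were higher, at 93.2% (90.5 to 95.2), and the interval for starts inside ORFs did not reach theirs. ORF-covering isoforms had the pair at 76.8% (76.0 to 77.6) of sites of that depth and at 60.7% (60.3 to 61.1) of all sites. Molecules of the sense strand that start inside an ORF and do not cover one had the pair at only 21.7% of 99966 sites, near the share of all positions antisense to ORFs. Starts that lie close together share sequence, so these shares are given without a test.

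**Figure D1:**
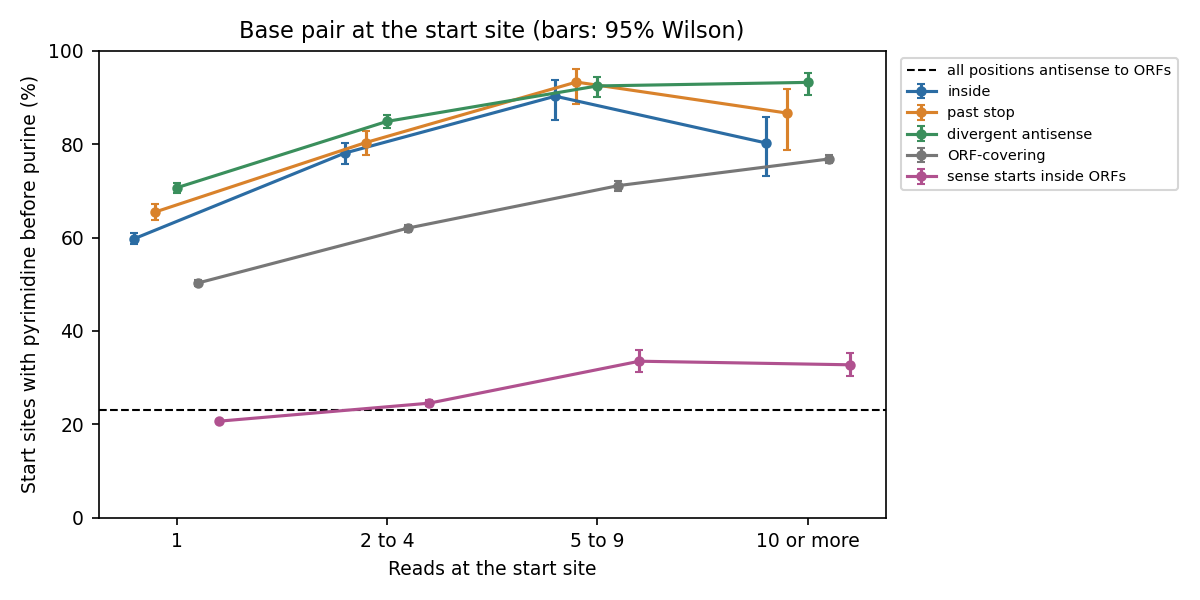
Share of distinct start sites (y axis, %) with a pyrimidine before a purine start base, by the number of reads at the site (x axis), for antisense RNAs that start inside an ORF or past its stop codon, divergent antisense RNAs, ORF-covering isoforms and sense starts inside ORFs; bars are 95% Wilson intervals and the dashed line is the 23.1% of all positions antisense to ORFs. Antisense sites with a single read stand at 59.8% (inside) and 65.5% (past the stop codon), and sense starts inside ORFs at 20.7%.

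Starts inside ORFs gathered at the 3′ end of the gene. Each ORF was divided into 10 equal segments, counted from the stop codon. Segment 1 held 4697 of the reads (31.8%, 31.0 to 32.5), against 762 (5.15%, 4.81 to 5.52) in segment 5. Another, lower rise lay towards the start codon, with 1368 reads (9.25%, 8.79 to 9.73) in segment 8. Segment 1 also held most distinct start sites, 1703 against 549 in segment 5, and 2615 against 759 reads when clusters of at least 50 reads were set aside. Starts past the stop codon were close to it as well. Their median distance was 98 bases (quartiles 42 and 199), and 30.2% (29.2 to 31.1) lay within the first 50 bases.

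**Figure D2:**
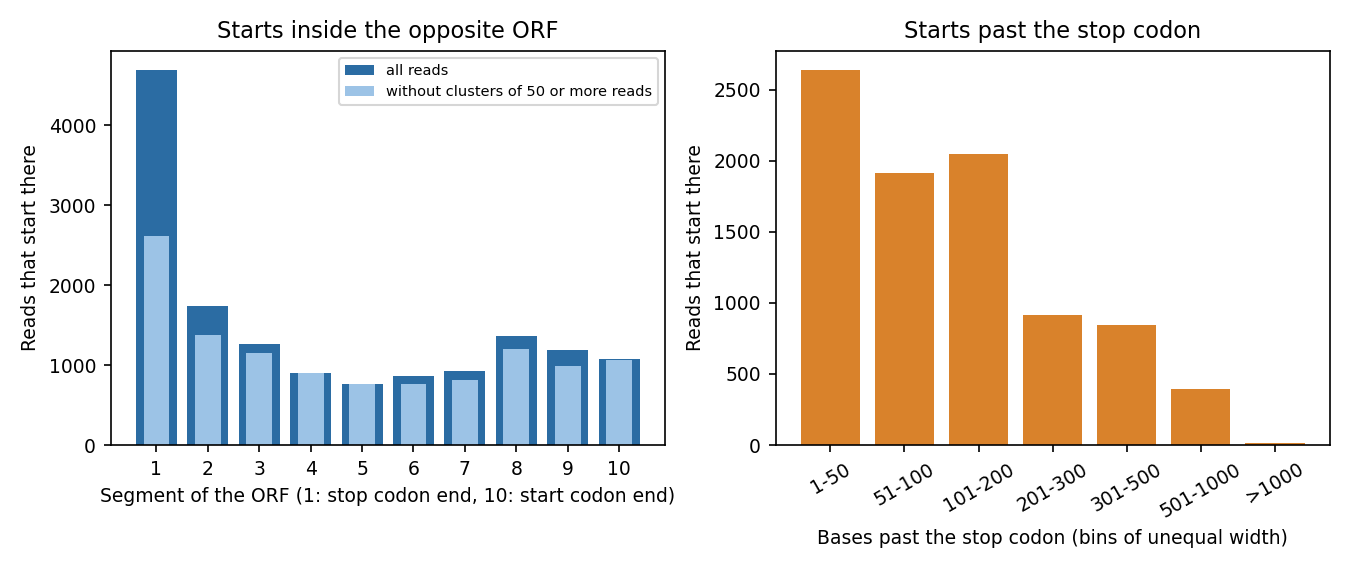
Reads of antisense RNAs by the place of their start: left, in 10 equal segments of the opposite ORF from its stop codon (1) to its start codon (10), with narrow bars for the reads outside clusters of 50 or more; right, in bases past the stop codon, in bins of unequal width. Segment 1 has 4697 reads and segment 5 has 762; the first 50 bases past the stop codon have 2641 reads.

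Short ORFs were overlapped by more reads of the inside class per length. ORFs of up to 500 bases had 5.16 such reads per 1000 bases, those over 1000 and up to 1500 bases 2.46, and those longer than 3000 bases 0.432. A read over several ORFs counts for each, also for an ORF it did not start in, so these are not counts of starts. These are reads of all lengths, 1521, 4125 and 966, summed over 893, 1352 and 527 ORFs. A rate per length falls with ORF length even where reads per ORF are equal, so it does not show more reads at each short ORF.

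The RNAs were short. The median length was 467 bases (quartiles 331 and 662) for starts inside ORFs and 415 bases (293 and 591) for starts past stop codons, the latter equal to the 415 bases of divergent antisense RNAs. Only 8.73% and 7.60% of reads were longer than 1000 bases. The rule leaves out RNAs that reach an ORF or annotated noncoding RNA gene of their own strand, which favours short ones. The same holds for the divergent antisense RNAs, and the part of the rule in these lengths was not tested. An RNA that started inside overlapped a median of 30.7% of the ORF, and one that started past the stop codon 24.4%.

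Where the RNA ends decides whether it crosses the promoter side of the sense gene. Of reads that started inside an ORF, 48.3% (47.5 to 49.2) ran past the start codon of an opposite ORF, by a median of 207 bases (quartiles 127 and 315). Of those that started past a stop codon, 15.9% (15.2 to 16.7) did so, and of divergent antisense reads 18.0% (17.6 to 18.5). Relative to the most overlapped ORF, 63.97% of the past-stop reads ended at least 500 bases before reaching the start codon, against 32.4% of the inside reads.

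**Figure D3:**
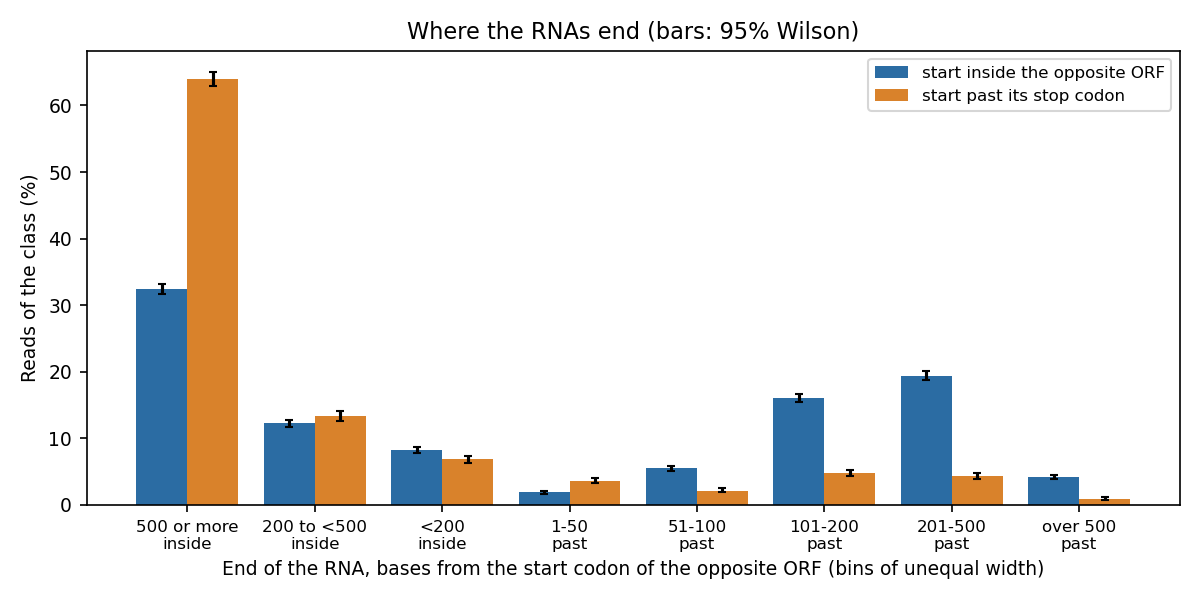
End of each antisense RNA relative to the start codon of the opposite ORF it overlaps most (x axis, bases still inside the ORF or past the start codon, bins of unequal width), as a percentage of the reads of its class (y axis) with 95% Wilson intervals. Ends over 100 and up to 500 bases past the start codon hold 16.0% and 19.4% of reads in 2 bins for starts inside ORFs, and 4.75% and 4.32% for starts past the stop codon.

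Ends past the start codon differed in sequence from ends within the ORF. TATATA, a known efficiency element of yeast 3′ end formation, stood in the last 100 bases before 31.5% (30.1 to 32.8) of the distinct ends that lay past a start codon, for RNAs started inside ORFs. It stood before 4.45% (3.92 to 5.05) of their ends within the ORF, while 100-base windows antisense to ORFs hold it at 2.22% and ends of ORF-covering isoforms at 40.9%. For starts past the stop codon the shares were 23.3% (20.5 to 26.4) and 7.94% (7.20 to 8.75). AATAAA was less frequent, at 13.7% and 6.53% for the inside class, against 6.67% of windows antisense to ORFs. Over the whole genome, windows of that length hold TATATA at 5.67%. A-rich genome followed 18.6% of the inside reads that ended past the start codon and 7.88% of those that ended within the ORF, and the part of place and of A-rich genome in the difference was not tested. Ends followed by A-rich genome (at least 6 A in the next 10 bases), where the primer can bind without a poly(A) tail, held 11.7% (11.3 to 12.1) of the reads, below the 20.7% of ORF-covering reads.

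The early part of these RNAs was compared with the binding motifs of the termination factors. Over the first 200 bases of the inside clusters with at least 10 reads, the Nab3 motif CTTG occurred 9.22 times per 1000 bases and TCTT 12.9 times, and the Nrd1 motifs GTAG 4.50 and GTAA 4.88 times, counted on the RNA strand and written as DNA. The antisense strand of all ORFs has 6.58, 11.0, 3.51 and 4.78. In past-stop clusters of that depth the same 4 motifs, in that order, were at 7.80, 11.0, 3.95 and 5.53. Divergent antisense clusters of that depth had 7.32, 11.9, 3.99 and 4.70, and ORF-covering ones 2.61, 4.59, 2.15 and 4.10. Over clusters of any depth the values were nearer to the antisense strand of all ORFs or below it. All inside clusters had 7.20, 11.1, 3.57 and 4.53, and all past-stop clusters 5.58, 9.63, 3.16 and 5.22. All divergent antisense clusters had 6.43, 10.5, 3.60 and 4.86.

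The 12 strongest clusters that start inside an ORF had 100 to 292 reads. NNR2 (YKL151C), encoding a dehydratase that repairs hydrated NADH and NADPH, led with 292 reads (95% Poisson interval 259 to 327) on 156 isoforms. Its most used start, chromosome XI position 164923 on the plus strand, had 172 of them and lies 6 bases inside the stop codon end of the ORF (164917 to 165930). The most read isoform runs for 1137 bases from there, through the rest of the ORF and 129 bases past its start codon, and had 28 reads. Of the cluster, 108 reads ended past the start codon and 184 inside the ORF. NNR2 had 0 reads that cover the ORF, and its 61 sense reads all ended inside the ORF, at a median of 39 bases past the start codon. The 108 long antisense reads overlap that median end by definition, as they run from near the stop codon to past the start codon. Sense ends lay between 2 and 587 bases. Counting all clusters, 390 antisense reads overlapped NNR2, the most of any ORF.

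SNU71, a component of the U1 spliceosomal particle, had 287 reads (255 to 322) on the minus strand of chromosome VII, with a median length of 309 bases. Of these, 124 started at position 516266 and 143 at 516274. SYF1, a splicing factor, had 152 reads (129 to 178) from 10 start sites on the minus strand of chromosome IV, 70 of them at position 1300986. With starts merged at 10 bases in place of 20, the cluster held 90 reads. PTI1, of the cleavage and polyadenylation factor, had 104 (85.0 to 126) in its main cluster and 215 in all. BUD31, another spliceosome component, had 111 reads (91.3 to 134) from 15 start sites between 228486 and 228555 on the minus strand of chromosome III.

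BUD31 and COM2 differed from the other 10 in where the RNA went. All 111 reads at BUD31, whose ORF spans only 474 bases, ran past the start codon and over the median start of its mRNA, which had 56 covering reads. COM2, a zinc-finger protein gene, had 112 reads (92.2 to 135) on the plus strand of chromosome V. The most used start, position 422181 with 79 reads, lies 1066 bases from the stop codon end and thus within the 5′ part of the ORF. Of the 112 reads, 99.1% ran past the start codon and 107 covered the median start of its mRNA, of which 5 covering reads were seen. In 6 of the 12 clusters no read passed the start codon, and NNR2 at 37.0%, PTI1 at 22.1%, ASR1 at 4.0% and TIF34 at 0.847% lay between.

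**Figure D4:**
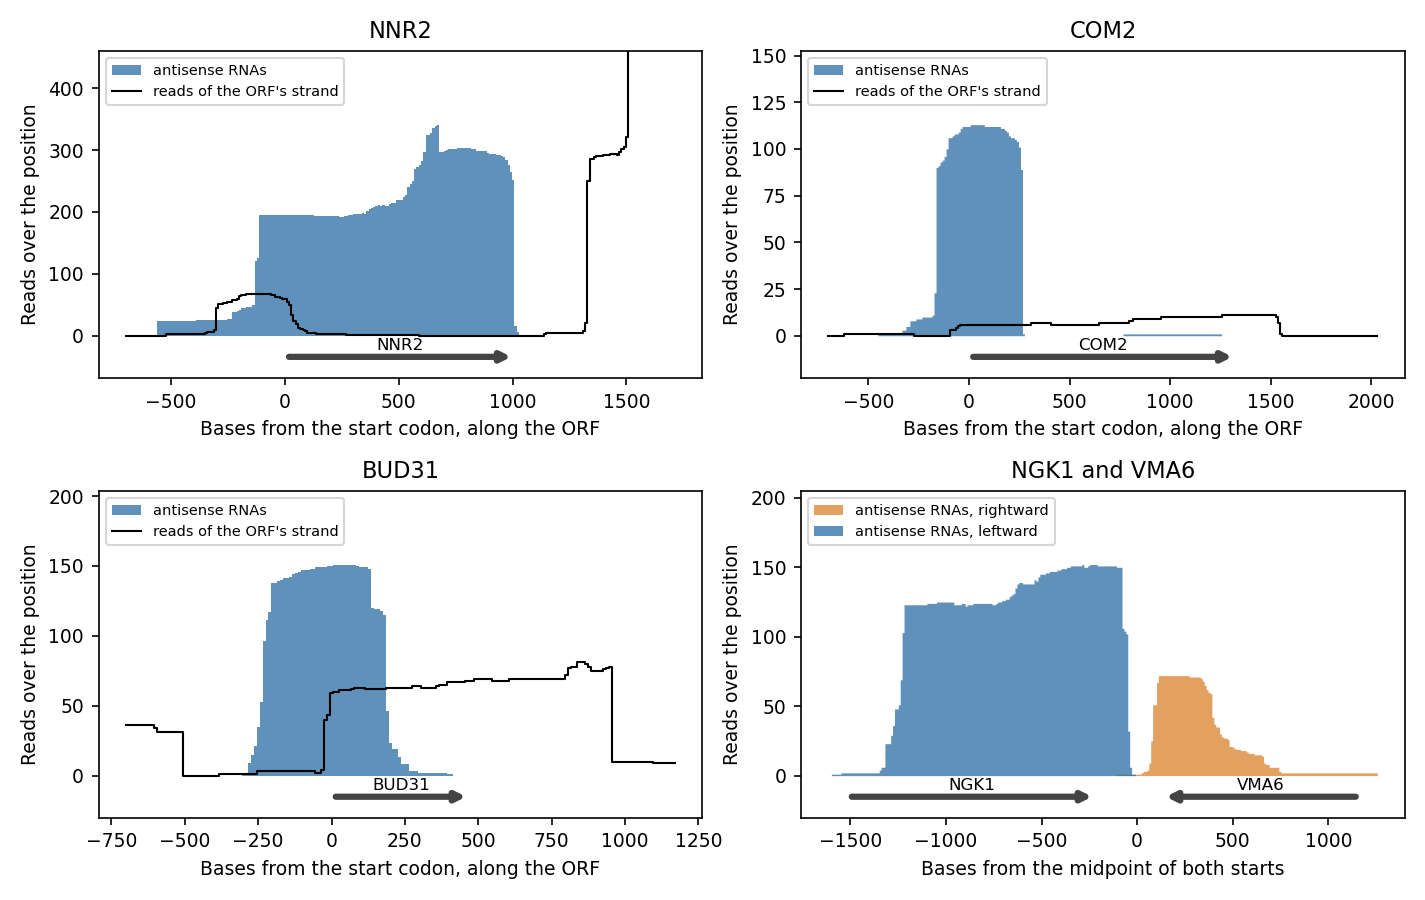
Reads over each position at 4 loci (y axis), with ORFs as arrows in their direction of transcription. In the NNR2, COM2 and BUD31 panels the x axis counts bases from the start codon along the ORF, filled areas are the antisense RNAs and the black line all reads of the ORF's strand, which leaves the NNR2 panel at the right where the neighbouring gene begins. In the fourth panel bases are counted from the midpoint of both starts, and the NGK1 and VMA6 antisense RNAs (149 and 69 reads in their clusters) run apart from the gap between the convergent genes.

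The remaining inside clusters began near the stop codon. ASR1, a ubiquitin ligase that binds RNA polymerase II, had 175 reads (150 to 203) with a median length of 678 bases. Its start is also used by 5 reads that cover an ORF of the same strand, and its most read isoform ends 345 bases before RDS3 on that strand. MEI4, required for meiotic double-strand breaks, had 154 reads (131 to 180) from 25 start sites between 238599 and 238721 on the plus strand of chromosome V, with 51 at position 238625, against 2 sense reads and 0 covering reads in these growing cells. DIC1, a mitochondrial dicarboxylate carrier, had 148 (125 to 174), and TIF34, a subunit of translation initiation factor 3, had 118 (97.7 to 141), of which 102 started inside. FMP40, a mitochondrial AMPylase, had 111 and the helicase gene ECM32 had 100, with 4.50% and 3.0% of reads on the most read isoform. Of the 12 starts, 10 lay within 200 bases of the stop codon end.

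The 12 strongest clusters past a stop codon had 90 to 295 reads. RGT2, a plasma membrane sensor of high glucose, led with 295 reads (262 to 331) on 195 isoforms. They started at 19 sites between 215713 and 215741 on the minus strand of chromosome IV, and their median length was 359 bases. The most used start, with 122 reads, was position 215733, 91 bases past the stop codon. The most read isoform ended 2013 bases short of the start codon. RGT2 itself had 1 covering read and 6 sense reads. YRO2, which encodes a membrane protein related to Hsp30, had 224 reads (196 to 255) against 11 sense reads. Its most used start, with 70 reads, lies 26 bases past the stop codon, and 10 of the 224 reads started inside the ORF. YNL035C had 172 (147 to 200), VFA1, whose product binds the ATPase Vps4, 124 (103 to 148), MAK10, of the NatC acetyltransferase, 118 (97.7 to 141) and AIM9 90 (72.4 to 111). In MAK10 51 of the 118 reads started inside the ORF.

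A single isoform carried some of the past-stop clusters. In MUM3, a spore wall gene, 83 of 91 reads (91.2%) had the same start and end, and in TIM9, a mitochondrial import chaperone, 78 of 100 (78.0%). AUS1, a sterol importer, was at 55.4%. The TIM9 reads crossed a short ORF, and 91.0% of them ran past its start codon. At RGT2 and VFA1 the top isoform held 18.3% and 3.23%. Among the 65 clusters with at least 50 reads, 18 had more than 50% of their reads on 1 isoform, up to 98.6% at DYN3, and the median was 22.3%. Whether such reads are copies of few molecules was not tested.

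**Figure D5:**
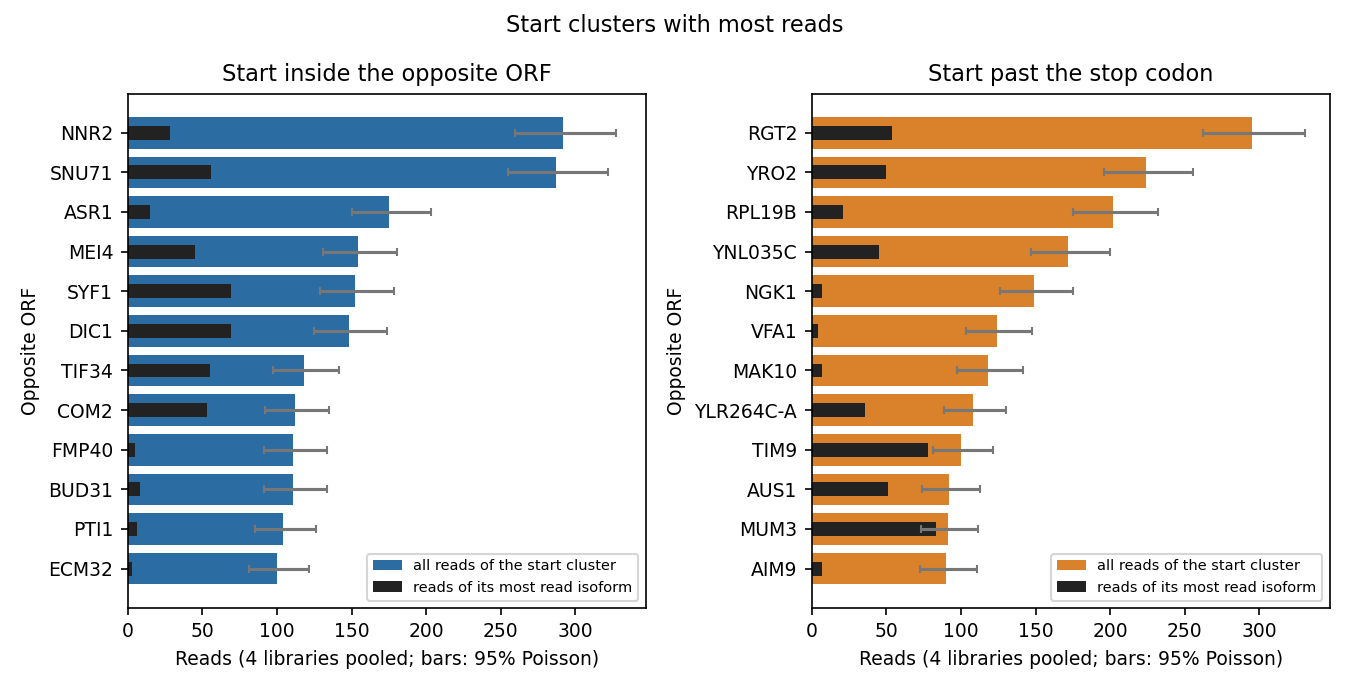
Reads of the 12 strongest start clusters inside an opposite ORF (left) and past its stop codon (right), 4 libraries pooled, with 95% Poisson intervals; dark bars are the reads of the most read isoform in the cluster. NNR2 has 292 reads with 28 on its most read isoform, and MUM3 has 91 with 83.

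At RPL19B, a ribosomal protein gene, starts were many and ends few. Its 202 reads (175 to 232) came from 41 start sites, spread around chromosome II position 169894 on the minus strand, with 27 reads at that base, but ended at only 10 sites, and the most read isoform reaches 19 bases into the stop codon end of the ORF, from over 500 bases past it. With starts merged at 10 bases the cluster held 95 reads. With at least 50 bases of overlap demanded, none of its reads or those of MUM3 counted. RPL19B had 5168 covering reads, and 246 ORFs had at least 1000. Of these 246, 13 (5.28%, 3.11 to 8.83) had at least 10 of the antisense reads, beside 8.56% of all ORFs. After RPL19B came TIM10 (95 antisense reads), RPL34A (91) and VMA6 (73). ACT1, the actin gene, had 22 antisense reads, all from inside, beside 1421 covering reads.

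Some past-stop starts lay behind a gene of their own strand. The nearest ORF behind the start belonged to the same strand, which is the convergent arrangement, for 44.7% (43.7 to 45.8) of past-stop reads, and 26.2% (25.3 to 27.1) started within 300 bases after its stop codon. Such RNAs can lie in the 3′ UTR of that gene: 13.5% (12.8 to 14.3) of past-stop reads and 5.63% (5.27 to 6.01) of inside reads overlapped the span of an ORF-covering isoform of their strand that had at least 2 reads. YLR264C-A (108 reads) and MUM3 are of this kind. The first start lies 151 bases after the stop codon of RPS28B and before the median end of its mRNA, with 66.7% of reads ending before A-rich genome. The second lies 4 bases after the stop codon of MBF1 and 226 bases before the median end of its mRNA. The 300-base share depended on the settings. It was 14.6% with a divergent window of 300 bases, 44.5% with 1000 bases, 9.58% with own-strand ORFs extended by 200 bases, and 16.1% without isoforms that overlap such mRNA spans, a setting added after the data were seen.

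The gap between NGK1 and VMA6 held a pair of starts that run apart. NGK1 (YLR446W, plus strand) and VMA6 (YLR447C, minus strand), a subunit of the vacuolar proton pump, converge with 340 bases between their stop codons. A cluster of 149 minus-strand reads (126 to 175) began at 17 sites between positions 1026644 and 1026696 of chromosome XII and ran over NGK1 with a median length of 1181 bases. The most used site, 1026644 with 44 reads, lies 60 bases past the median end of VMA6 mRNA. With starts merged at 10 bases, or with own-strand ORFs extended by 200 bases, 44 of the 149 reads were left. A cluster of 69 plus-strand reads (53.7 to 87.3) began at 11 sites between 1026781 and 1026843 and ran over VMA6 with a median length of 330 bases. Its most used site, 1026813 with 18 reads, lies 169 bases from 1026644. VMA6 had 4605 covering reads and NGK1 had 1. The sequence from 10 bases outside each start is printed on the plus strand with both start bases in capitals.
NGK1 to VMA6, chrXII:1026634-1026823: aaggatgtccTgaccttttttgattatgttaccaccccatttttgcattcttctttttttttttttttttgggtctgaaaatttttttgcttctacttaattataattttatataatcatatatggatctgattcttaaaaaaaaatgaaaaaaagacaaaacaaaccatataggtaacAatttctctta
Among the 364 clusters of at least 10 reads, 22 (6.04%) formed 13 such pairs at 9 sites, with 169 to 312 bases between the starts of their most read isoforms. The others were at the ORF pairs PEX22 and ACS1, VMA8 and RML2, FMP33 and PIR5, SDH9 and GYP6, JJJ3 and YJR098C, SPC2 and CYB2, TGS1 and PRM4, and MET31 and EGD1. These pairs were picked after their counts were seen.

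Many strong clusters lay not far beyond the 500-base limit. For 14 of the 24 the nearest opposite start codon behind the start was over 500 and up to 1000 bases away, 9 of 12 inside and 5 of 12 past the stop codon. Of all 364 clusters of at least 10 reads, 200 (54.9%) were farther than 1000 bases away, as were 57.9% of all member reads. The rest lay over 500 and up to 1000 bases away. All 14 of the strongest clusters in that range left the class when the limit was 1000 bases. NNR2 began 538 bases from the start codon of GPM1, the phosphoglycerate mutase gene with 21067 covering reads, and 515 bases from the median start of its mRNA. SYF1 began 596 bases from the median mRNA start of RPL12B, MEI4 533 bases from that of ERG28 and ECM32 538 bases from that of BMH1. For DIC1 it was 502 bases from that of KAP95. The gap was under 500 bases at RGT2, 328 from the median mRNA start of ARF2, at AIM9, 340 from that of SER3, and at PTI1, 460 from that of CHO2. Over all reads, 1.63% (1.48 to 1.80) began no more than 300 bases before the median start of an opposite mRNA with at least 2 covering reads, and 8.55% (8.20 to 8.91) within 500 bases. The clusters farther than 1000 bases from any such start codon were those at ASR1, TIF34, COM2, YRO2, YNL035C, NGK1, YLR264C-A, TIM9, AUS1 and MUM3.

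The Reb1 core had a lower share before these clusters than before divergent antisense and ORF-covering ones. The core TTACCCG, bound by Reb1, a factor that keeps nucleosomes away, was searched on both strands in the 200 bases before the start of the most read isoform. It stood before 0.881% (0.663 to 1.17) of the inside clusters and 2.34% (1.75 to 3.13) of the past-stop clusters. With at least 10 reads the shares were 2.83% (6 of 212, 1.30 to 6.04) and 3.95% (6 of 152, 1.82 to 8.34), against 9.62% (7.46 to 12.3) of divergent antisense clusters and 9.90% (8.88 to 11.0) of ORF-covering ones, and the past-stop interval overlapped the divergent one. Windows of that length inside ORFs hold it at 0.424%, all genome windows at 1.25% and windows upstream of start codons at 5.67%. The rule leaves out starts just upstream of opposite start codons, and its part in the lower share was not tested. TATAAA stood before 29.7% (24.0 to 36.2) of inside and 42.8% (35.2 to 50.7) of past-stop clusters of at least 10 reads, against 39.7% (35.8 to 43.8) of divergent antisense and 36.4% (34.7 to 38.1) of ORF-covering clusters. Windows inside ORFs hold it at 14.3% and windows upstream of start codons at 37.8%. RGT2 was the only one of the 24 with a Reb1 core, 138 bases before the start. It is shown in capitals, as its reverse complement CGGGTAA, on the RNA strand, and the last base is the start.
RGT2, chrIV:215733-215876, minus: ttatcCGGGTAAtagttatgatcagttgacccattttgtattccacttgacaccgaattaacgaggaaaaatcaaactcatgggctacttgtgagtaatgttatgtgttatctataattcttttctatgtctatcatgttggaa

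Over the genome, 3127 of 6002 ORFs (52.1%) were overlapped by at least 1 of these reads and 514 (8.56%) by at least 10. An RNA over several ORFs counts for each. Of the 514, 222 (43.2%) had more of these antisense reads than reads of their own strand. So did 21 of the 24 host genes, TIF34, RPL19B and TIM9 being the exceptions. Both sets were picked by their antisense reads, which favours such an excess, so nothing is concluded from these counts about the balance of the strands. Covering reads were rare on long ORFs: the median was 0 for ORFs longer than 3000 bases, so a low sense count there does not show low expression. Among the 514, 27.8% had 0 covering reads, against 25.3% of all ORFs. With a limit of 1000 bases in place of 500 the count of ORFs with at least 10 reads was 307, and with at least 2 reads per isoform it was 172.

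Of 9 listed genes known for regulation by antisense transcription, 5 (55.6%) had at least 1 of these reads, beside 52.1% of all ORFs, and their median was 2 reads against 1. Of the 9, 1 (11.1%, beside 8.56% of all ORFs), HMS2, which encodes a protein related to heat shock factor, had at least 10. HMS2 had 65 antisense reads, all from inside, beside 21 covering reads. Its main cluster had 57 reads, 28 of them from chromosome X position 705177 on the minus strand, 95 bases from the stop codon end. PHO5, the secreted acid phosphatase gene, had 8, the cell cycle kinase gene CDC28 had 5, and the meiotic gene ZIP2 and the inositol phosphate kinase gene KCS1 had 2 each. PHO84, IME4, GAL10 and SUR7 had 0, where a count of 0 allows up to 3 reads. RNAs on annotated noncoding genes are not members, and the opposite strand of PHO84, ZIP2, IME4 and GAL10 had 17, 18, 4 and 1 such reads.

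Meiosis and sporulation genes are mostly off in growing cells. Of 35 listed genes, 27 (77.1%) had at least 1 read, against 52.1% of all ORFs, and 6 (17.1%) had at least 10, against 8.56%. Their median was 1 read, the same as over all ORFs, and their median ORF length was 1473 bases against 1200. After MEI4 with 158 reads came SPR3, a sporulation septin gene, with 87 antisense and 1 sense read, and MSH4, which acts in meiotic crossing over, with 26. The SPR3 cluster of 71 reads spread over 26 start sites and 65 isoforms, with its most used start 18 bases inside the stop codon end. REC114 had 14, and NDT80, the master regulator of meiotic division, and DMC1, the meiotic recombinase, had 12 each. None of these 6 had a covering read, but the median over all 35 listed genes was also 0 covering reads, so nothing is concluded from it.

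Phosphate genes were overlapped by at least 1 read in 12 of 14 cases (85.7%, beside 52.1% of all ORFs) and by at least 10 in 3 (21.4%, beside 8.56%). VTC1, of the polyphosphate polymerase, had 74 antisense reads beside 863 covering reads. PHO81, the inhibitor of the phosphate kinase complex, had 30, and VTC3 had 21. Of the 30 at PHO81, 25 came from a cluster within the 5′ part of its ORF, and all 25 ran past the start codon. Of 7 galactose genes, 4 (57.1%) had at least 1 read, near the 52.1% of all ORFs, and 1 (14.3%, beside 8.56%) at least 10. GAL3, the galactose sensor, had 18, GAL80 had 7 and GAL2 had 5. Among 18 hexose transport genes 7 (38.9%, beside 52.1%) had a read. RGT2 alone (5.56%, beside 8.56%) had at least 10, HXT5 having 5 and HXT1 having 2.

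Glycolysis genes are among the most transcribed in glucose. Of these, 3 of 16 (18.8%) had any of these reads, against 52.1% of all ORFs, and 0 had at least 10, against 8.56%. The 3 were TPI1 with 3, HXK1 with 2 and HXK2 with 1, beside a median of 503 covering reads over the list. Of 12 stress genes, 7 (58.3%) had a read and 2 (16.7%) at least 10, beside 52.1% and 8.56% of all ORFs. CTT1, cytosolic catalase, had 80, of which 77 came from a cluster on the minus strand of chromosome VII. Its most used start, position 656425 with 30 reads, lay 103 bases past the stop codon and 535 bases from the next opposite start codon. GSY2, glycogen synthase, had 10 and HSP30 had 6. Of 28 amino acid synthesis genes 17 (60.7%) had a read and 3 (10.7%) at least 10, near the 52.1% and 8.56% of all ORFs. The 3 were TRP1 with 22, MET3 with 18 and MET6 with 16. These lists were chosen with earlier results of the data known, and the part of ORF length and sense level in their counts was not tested.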

How the data were processed

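TIF-Seq of capped and polyadenylated RNA was made from 4 libraries of 1 group. The deposited table holds whole-number read counts per pair of start and end position, and the authors pooled the 4 libraries in a single column, so the depth of each library is unknown. CASAVA, Novoalign 2.07.10 and build R64 are named per the submitters' processing notes. Their roles and settings, and how PCR copies were treated, are not given in these sources, so intervals cover counting error only.

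Positions were read as 1-based on R64 and set against 6002 ORFs (start to stop codon, introns included) and 411 noncoding RNA genes of the RefSeq R64 annotation. A smallest overlap of 1 base counted. Start sites within 20 bases of the next were merged. The 12 clusters with most reads of each class were named, a cluster being placed by the majority of its reads, and in addition all genes of the antisense list and the 3 of each other list with most reads. Named past-stop clusters carry the first ORF entered. DYN3, REC114, NDT80, DMC1, the ORF pairs and the ORFs with many covering reads were chosen after their values were seen. CST9 was matched under its older symbol ZIP3. Intervals are 95% Wilson or exact Poisson. Sequences come from the RefSeq R64 genome.

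The placement was tested on 3000 random isoforms against a second implementation, and all 3000 matched. The members, lists and rules were chosen with earlier results of these data known. Python 3.11.15, pandas 2.3.3, numpy 2.4.6 and scipy 1.17.1 were used. Alternatives covered reads per isoform, the divergent window, A-rich ends, the overlap, own-strand margins, pseudogenes and transposable elements, weighting by isoform and the merging distance.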

Additional observations from a re-analysis of the deposited data

How the results depend on the processing

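No paired analysis was possible because the 4 libraries form 1 group in 1 pooled column, and for the same reason leaving out each library was not run. Of 97 values under 10 settings, 43 stayed within the counting interval of the reported value (for the number of ORFs, within 1.5 times). The others follow, and their causes were not tested. Values are given in the order share of all reads, share of their reads that start inside, number of ORFs with at least 10 reads, median length inside and past the stop codon, share past a start codon, share of past-stop reads within 300 bases after an own-strand stop codon, share before A-rich genome, share of start sites with a pyrimidine before a purine, and share of clusters with TTACCCG, leaving out those that stayed.

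With at least 2 reads per isoform they were 0.538%, 62.0%, 172 ORFs, 449 bases inside, 35.3%, 24.9%, 12.2%, 75.02% and 2.38%. With at least 5 reads they were 0.322%, 60.5%, 114 ORFs, 449 and 404 bases, 34.8%, 24.9%, 12.9%, 75.5% and 3.49%. With a divergent window of 300 bases they were 1.93%, 54.9%, 795 ORFs, 30.8% past a start codon, 14.6%, 10.7%, 68.3% and 2.25%. With 1000 bases they were 0.744%, 65.9%, 307 ORFs, 481 and 398 bases, 44.6%, 44.5%, 14.3% and, for TTACCCG, 0.880%. Without ends before A-rich genome they were 1.42%, 61.8%, 460 bases inside, 33.2% and 25.3%. With 50 bases of overlap they were 1.20%, 65.4% and 37.1% past a start codon. With own-strand ORFs extended by 200 bases they were 1.12%, 65.7%, 34.3% past a start codon, 9.58% and 11.1%. Counting each isoform 1 time gave 4.08% and 478 bases inside. Leaving out isoforms over an own-strand mRNA span, chosen after seeing the data, gave 1.17%, 64.8% and, for the 300-base share, 16.1%.

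Of the 24 strongest clusters, 18 stayed within their counting interval when starts were merged at 10 bases and 22 at 50 bases. Depth limits the single-read isoforms: 1 read cannot tell a rare RNA from an error.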
